A study of Mus musculus with 9 samples.

Results

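The 49 genes described here encode the machinery of DNA replication and of entry into S phase. They were chosen by name as origin recognition, licensing, helicase, polymerase, nucleotide synthesis and S-phase entry genes. The rule holds no threshold on measured values, but earlier results of these data were known when the genes were chosen. All 49 were found by their mouse Ensembl identifiers among the 56923 identifiers of the count table, and all 49 passed the filter on low counts. RNA was sequenced from kidneys of wild-type (WT) mice in 9 libraries. The 3 sham libraries came from mice that had surgery without ischemia-reperfusion (IR) injury and are labelled as given PBS. The other 6 libraries came from mice with acute kidney injury (AKI), 3 given phosphate-buffered saline (AKI_PBS) and 3 given vesicles from milk that carried siRNA to PTP1B (AKI_PTPi_mEVs). The series addresses what PTP1B, a tyrosine phosphatase encoded by Ptpn1, does in acute kidney injury.

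In G1 phase the origin recognition complex, CDC6 and CDT1 load the ring-shaped MCM2-7 helicase onto origins, a step called licensing. At the start of S phase CDC45 and the GINS complex turn loaded MCM rings into working helicases, and primase, polymerases, the PCNA clamp and its loader RFC then copy the strands. Many of these genes are transcribed under E2F factors, which the kinases of cyclin E and other G1 cyclins free from the retinoblastoma protein. The inhibitor p21, encoded by Cdkn1a, restrains both these kinases and PCNA. Tubule epithelium of the adult kidney divides rarely, and surviving tubule cells re-enter the cell cycle during repair after ischemia.

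The libraries held 9467851 to 11389479 counts each, and the test covered 17036 genes. Levels are CPM, that is, counts scaled by TMM factors and the total of each library, values written with ± are log2 fold changes and their standard errors, n = 3 libraries per group, and a gene was called when its Benjamini-Hochberg adjusted p over all genes tested, from edgeR's quasi-likelihood test, was under 0.05. Whether each library had its own animal is not in the labels, so a p-value here covers only sample-to-sample spread, which may be technical. Nor do they give the animals' age or the time after injury, and a difference in time cannot be told apart from the group. No group with empty vesicles or a control siRNA is labelled, so the injured groups differ by the loaded vesicles as a whole. The tissue is bulk kidney, in which more cells of a type and more RNA per cell cannot be told apart. Ptpn1, the siRNA target, lay between 80.9 and 98.8 CPM in sham, 123 and 170.4 CPM in AKI_PBS and 93.98 and 106 CPM in AKI_PTPi_mEVs. Proximal tubule markers, among them the endocytic receptor gene Lrp2, summed to 14097 to 17369 CPM in sham, 5518 to 8983 CPM in AKI_PBS and 9910.2 to 14105 CPM in AKI_PTPi_mEVs.

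Replication genes were higher in AKI_PTPi_mEVs than in AKI_PBS: 30 of 49 were called higher and 0 lower, where 25.4% of all genes tested were called higher and 25.8% lower (51.1% in either direction). Of the 30, 26 rose at least 2-fold, a size that 13.4% of all genes reached in this direction. The median log2 fold change over the 49 was 1.19, and that over all 17036 genes was -0.025. No member was called lower by edgeR, DESeq2 or limma voom, and 0 had an unadjusted edgeR p under 0.05 in that direction. All 30 calls were also made in the fits without each library in turn. In 32 members the 3 AKI_PTPi_mEVs libraries were all above the 3 AKI_PBS libraries, an order that 28.7% of genes showed.

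Against sham, AKI_PTPi_mEVs had 26 of 49 members higher and 0 lower, beside 7.43% and 5.79% of all genes. Their median log2 fold change was 0.91 beside -0.010 over all genes, 16 rose and 0 fell at least 2-fold (2.49% and 3.3% of all genes), and 44 of the 49 had AKI_PTPi_mEVs libraries that were all above the sham libraries (21.2% of all genes), and 0 were all below (18.1%). Here too 0 were lower by DESeq2, by limma voom or at an unadjusted edgeR p under 0.05. The number called higher depended on single libraries: it was 11 without AKI_PTPi_mEVs replicate 2, 12 without sham replicate 2 and 15 without sham replicate 3. The 11 members called in every one of these fits were Cdt1, Mcm2, Mcm3, Mcm4, Mcm5, Mcm6, Rpa1, Rpa2, Rrm1, Uhrf1 and Chaf1b. AKI_PTPi_mEVs replicate 2 was the highest of its group in 43 of 49 members. The title of this library reads PTP@mEVs where those of its group's other replicates read PTPi@mEVs. Its treatment label reads PTPi@mEVs, by which it was grouped. Both comparisons use the AKI_PTPi_mEVs libraries, so they are not separate evidence.

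In AKI_PBS replication genes were called in both directions. Against sham, 10 of 49 members were higher and 14 lower in AKI_PBS, where 27.8% of all genes were higher and 27.9% lower (55.7% in either direction), and the median log2 fold change over the members was -0.19 beside 0.028 over all genes. That median was -0.0011 without sham replicate 1, -0.12 with library totals and -0.088 with limma voom. These shares of members, unlike those above, were near the share of all genes or below it. The higher members were Orc2, Orc6, Cdt1, Gins1, Pcna, Rfc3, Rpa2, Fen1, Rrm2 and Chaf1b, and their number fell to 6 without sham replicate 2 and to 5 without sham replicate 3. The lower members were Orc4, Mcm5, Gins3, Mcm10, Rfc2, Rfc4, Rfc5, Prim1, Prim2, Pold2, Rpa1, Tyms, Tk1 and E2f1. Of these 24 calls, 14 were made in the fits without each library in turn, 4 of the higher ones (Orc2, Rfc3, Rpa2 and Chaf1b) and 10 of the lower ones (all but Gins3, Rfc4, Pold2 and Tyms). Genes of a single complex were called in both directions in the origin recognition complex, RFC, RPA and the GINS complex. The GINS calls were lost in some of these fits. Genes in general were also called in both directions here, at the near-equal shares given above.

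Some members that were not called as reported passed when 1 library was left out, with the log2 fold changes given here. In AKI_PBS against sham, Orc1 (1.12), Mcm3 (0.69), Gins2 (1.12) and Uhrf1 (1.14) passed without sham replicate 1, Cdc45 (-0.91) passed without sham replicate 2, Pole (-0.88) passed without sham replicate 3, Orc3 (-0.47), Mcm7 (0.58), Pold1 (-0.89) and Rpa3 (-1.09) passed without AKI_PBS replicate 1, Pole2 (-1.30) passed without AKI_PBS replicate 2, Mcm6 (-0.36), Cdc45 (-1.02) and Gins2 (1.05) passed without AKI_PBS replicate 3 and Pole2 (-0.93) passed without AKI_PTPi_mEVs replicate 2. In AKI_PTPi_mEVs against AKI_PBS, Mcm10 (0.63) passed without sham replicate 1, Orc5 (0.52) and Gins2 (1.02) passed without AKI_PBS replicate 1, Mcm7 (0.93), Mcm10 (0.91) and Rpa2 (0.53) passed without AKI_PBS replicate 3 and Gins2 (0.93) passed without AKI_PTPi_mEVs replicate 1. In AKI_PTPi_mEVs against sham, Pold2 (0.72) and Tk1 (0.74) passed without AKI_PBS replicate 1, Pole2 (1.07) passed without AKI_PBS replicate 2, Orc2 (0.42), Orc4 (0.39), Orc6 (0.61), Cdc45 (1.04), Gins4 (0.40), Pcna (0.46), Pold2 (0.72), Pole2 (1.07), Tyms (0.67), Tk1 (0.73) and E2f1 (0.68) passed without AKI_PBS replicate 3 and Orc6 (0.76) and Tk1 (0.88) passed without AKI_PTPi_mEVs replicate 1.

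**Figure D1:**
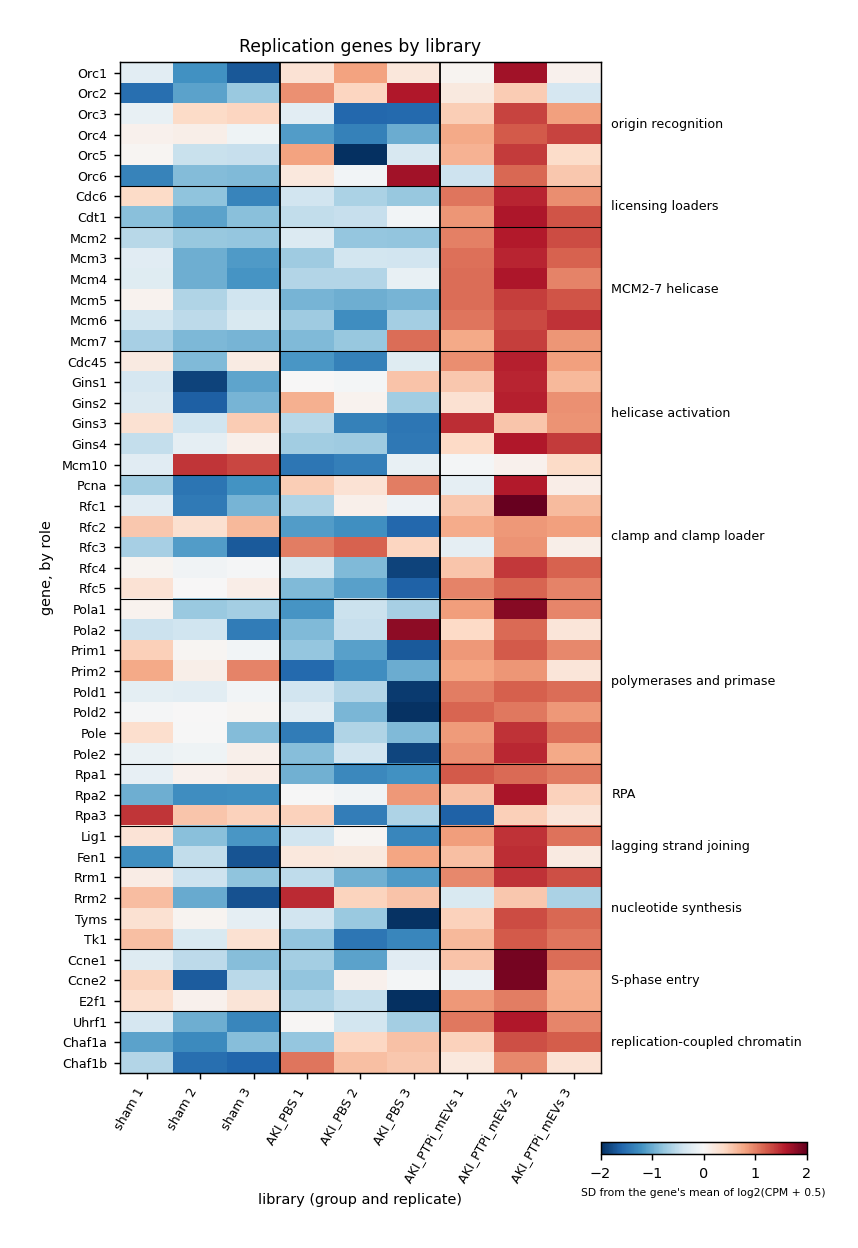
Level of each of the 49 genes (rows, by role) in each library (columns), as SD from the gene's own mean of log2(CPM + 0.5) over the 9 libraries, with the colour scale ending at 2 SD in either direction. The AKI_PTPi_mEVs columns are above the gene's mean (red) in most rows, replicate 2 most often, while the AKI_PBS columns hold both colours.

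**Figure D2:**
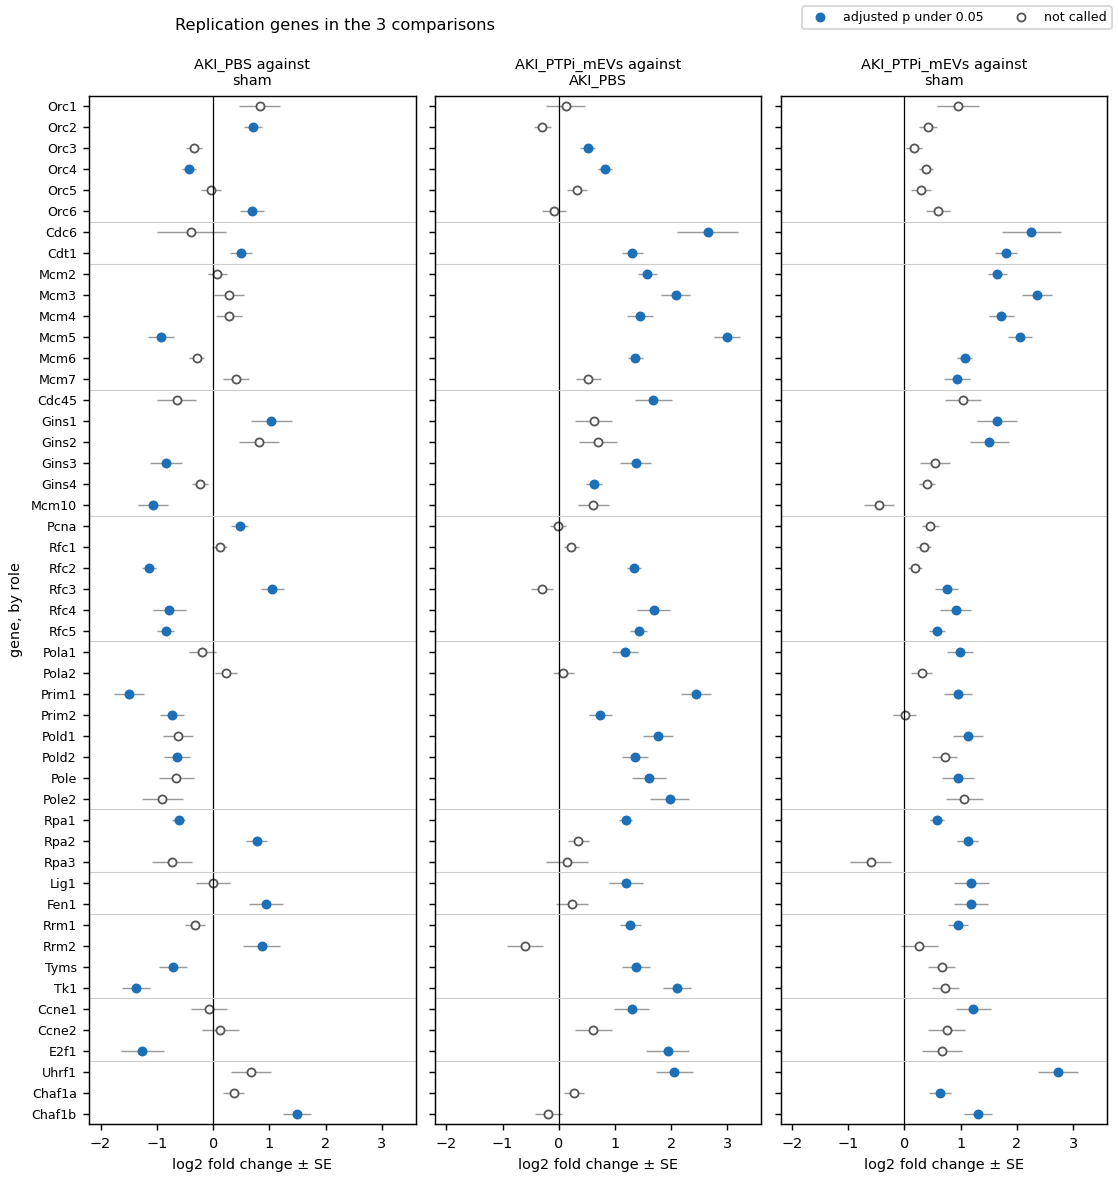
Log2 fold change (x axis) of the 49 genes (rows, by role) in the 3 comparisons, with bars of 1 standard error and filled points for an edgeR adjusted p under 0.05. In AKI_PBS against sham 10 filled points lie right of 0 and 14 left of it, in AKI_PTPi_mEVs against AKI_PBS 30 lie right and 0 left, and in AKI_PTPi_mEVs against sham 26 lie right and 0 left.

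The licensing loaders rose in AKI_PTPi_mEVs. Cdt1, whose product brings MCM rings to the origin, was at 8.43, 7.35 and 8.43 CPM in sham, 10.4, 10.6 and 13.3 CPM in AKI_PBS and 22.6, 34.3 and 28.03 CPM in AKI_PTPi_mEVs. All 3 AKI_PTPi_mEVs libraries were above every other library. Cdt1 was 2.48-fold higher in AKI_PTPi_mEVs than in AKI_PBS (1.31 ± 0.19 on the log2 scale, edgeR adjusted p = 0.000138) and 3.501-fold higher than in sham (1.81 ± 0.20 on the log2 scale, edgeR adjusted p = 0.000241). In AKI_PBS it was higher than in sham by a small margin (0.50 ± 0.20 on the log2 scale, edgeR adjusted p = 0.0495), a call lost in the fits with relative log expression factors, with DESeq2, with limma voom, with either other filter, with the replicate block, with only the groups compared, and without any 1 sham library, AKI_PBS replicate 2 or 3, or AKI_PTPi_mEVs replicate 2 or 3.

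Cdc6, the ATPase that works with CDT1 in loading, was at 2.94, 0.744 and 0.305 CPM in sham, 1.297, 0.944 and 0.795 CPM in AKI_PBS and 5.69, 8.62 and 4.95 CPM in AKI_PTPi_mEVs. It was low in both other groups, and its AKI_PTPi_mEVs libraries were all higher than the other 6. The log2 fold change against AKI_PBS was 2.65 ± 0.54 (edgeR adjusted p = 0.00135) and against sham 2.26 ± 0.53 (edgeR adjusted p = 0.0148). The value against sham was not called without sham replicate 2 (1.97) or AKI_PTPi_mEVs replicate 2 (1.98), and it was 3.57 without sham replicate 1, which alone among the sham libraries held over 1 CPM. Between AKI_PBS and sham Cdc6 did not pass (-0.39 ± 0.61 on the log2 scale, edgeR adjusted p = 0.608).

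The origin recognition complex marks origins and stays partly on chromatin through the cycle. Of its 6 genes, 2 were called higher in AKI_PTPi_mEVs than in AKI_PBS, beside 25.4% of all genes. Its genes called lower there numbered 0 by edgeR, DESeq2 and limma voom, beside 25.8% of all genes. None of its 6 genes was called in AKI_PTPi_mEVs against sham by edgeR, beside 13.2% of all genes. Of the 6, 4 had an unadjusted p under 0.05, and DESeq2 called 1 higher (Orc4) and limma voom 0. In the fit without AKI_PBS replicate 3, Orc2, Orc4 and Orc6 were called higher there (0.42, 0.39 and 0.61). Orc4 was at 38.4, 38.6 and 36.8 CPM in sham, 28.3, 26.7 and 29.2 CPM in AKI_PBS and 45.4, 51.2 and 52.7 CPM in AKI_PTPi_mEVs. Its AKI_PBS libraries were below, and its AKI_PTPi_mEVs libraries above, every sham library. It fell in AKI_PBS against sham (-0.44 ± 0.13 on the log2 scale, edgeR adjusted p = 0.0105) and was higher in AKI_PTPi_mEVs than in AKI_PBS (0.83 ± 0.13 on the log2 scale, edgeR adjusted p = 0.000181). Orc3 was also higher in AKI_PTPi_mEVs than in AKI_PBS (0.51 ± 0.14 on the log2 scale, edgeR adjusted p = 0.00852).

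Orc2 went the other way, at 18.4, 20.5 and 22.1 CPM in sham, 32.5, 28.99 and 38.2 CPM in AKI_PBS and 27.5, 29.6 and 24.3 CPM in AKI_PTPi_mEVs. It rose in AKI_PBS against sham (0.71 ± 0.16 on the log2 scale, edgeR adjusted p = 0.00187) and did not pass between the injured groups (-0.29 ± 0.15), although it was called lower there with library totals alone. Exons of Orc2 overlap those of Nif3l1 on the other strand over 1150 bases, and the strand setting of the counting is not given in the sources used here. Orc6 rose in AKI_PBS by 0.69 ± 0.21, a call lost without sham replicate 1 (0.62) or AKI_PBS replicate 3 (0.44). Orc1, whose product hydrolyses ATP within the complex, was at 1.14, 2.02 and 2.22 CPM on average in sham, AKI_PBS and AKI_PTPi_mEVs, and neither it nor Orc5 passed in any of the 3 comparisons as reported.

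The MCM2-7 genes, which encode the 6 subunits of the helicase ring, rose together in AKI_PTPi_mEVs. All 6 were higher than in sham, and 5 of 6 were higher than in AKI_PBS, beside 7.43% and 25.4% of all genes. Mcm5 was at 14.3, 7.53 and 9.25 CPM in sham, 5.53, 5.23 and 5.48 CPM in AKI_PBS and 37.99, 48.4 and 43.1 CPM in AKI_PTPi_mEVs. Its 3 AKI_PTPi_mEVs libraries were the highest of all 9, and its AKI_PBS libraries lay below all sham libraries. Mcm5 was 7.95-fold higher in AKI_PTPi_mEVs than in AKI_PBS (2.99 ± 0.23 on the log2 scale, edgeR adjusted p = 1.48e-06), 4.16-fold higher than in sham (2.06 ± 0.22 on the log2 scale, edgeR adjusted p = 0.000206) and lower in AKI_PBS than in sham (-0.93 ± 0.23 on the log2 scale, edgeR adjusted p = 0.00395). None of the other 5 was called in AKI_PBS against sham.

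Mcm3 was at 12.2, 6.51 and 5.69 CPM in sham, 8.13, 10.8 and 10.8 CPM in AKI_PBS and 36.2, 50.98 and 38.4 CPM in AKI_PTPi_mEVs. Sham replicate 1 was the highest sham library of Mcm3, and all AKI_PTPi_mEVs libraries were still above it. Mcm2 was at 21.95, 19.5 and 19.3 CPM in sham, 25.8, 19.3 and 19.1 CPM in AKI_PBS and 53.3, 74.2 and 63.2 CPM in AKI_PTPi_mEVs, with sham and AKI_PBS overlapping. Mcm4 was at 15.8, 10.1 and 8.94 CPM in sham, 12.8, 12.9 and 16.7 CPM in AKI_PBS and 35.4, 47.4 and 32.7 CPM in AKI_PTPi_mEVs, again with sham and AKI_PBS overlapping and AKI_PTPi_mEVs above both. Against AKI_PBS the log2 fold changes of Mcm2, Mcm3 and Mcm4 were 1.57 ± 0.17, 2.08 ± 0.26 and 1.45 ± 0.23, and against sham 1.65 ± 0.17, 2.36 ± 0.26 and 1.73 ± 0.23. The largest edgeR adjusted p among these 6 values was 0.000706.

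Mcm6 was at 47.5, 44.3 and 48.8 CPM in sham, 40.97, 32.3 and 41.4 CPM in AKI_PBS and 89.5, 100.2 and 105 CPM in AKI_PTPi_mEVs, in the order AKI_PBS, sham, AKI_PTPi_mEVs without overlap. It rose by 1.36 ± 0.14 against AKI_PBS (edgeR adjusted p = 9.2e-06) and by 1.07 ± 0.14 against sham (edgeR adjusted p = 0.000583). Mcm7 was at 33.6, 30.97 and 30.7 CPM in sham, 31.1, 32.5 and 62.6 CPM in AKI_PBS and 55.4, 68.8 and 57.7 CPM in AKI_PTPi_mEVs. AKI_PBS replicate 3 lay within the range of the AKI_PTPi_mEVs libraries, and the other AKI_PBS libraries lay within that of sham. Mcm7 did not pass between the injured groups (0.53 ± 0.23 on the log2 scale, edgeR adjusted p = 0.068) but did without AKI_PBS replicate 3, where its log2 fold change was 0.93, and with limma voom, no low-count filter or the replicate block. Against sham it rose by 0.93 ± 0.23, a call lost without any 1 sham library or AKI_PTPi_mEVs replicate 2. Reads over Mcm7 can also belong to Ap4m1 or Cops6, whose exons overlap it on the other strand over 321 and 64 bases.

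The ring takes up each subunit in equal number, so levels were also compared per kilobase of exon. In sham the mean levels of the 6 genes spread over 4.64-fold, from 2.16 CPM per kilobase for Mcm3 to 10.04 CPM per kilobase for Mcm6. The spread was 7.01-fold in AKI_PBS, from 1.36 CPM per kilobase for Mcm5 to 9.504 CPM per kilobase for Mcm7. It was 2.300-fold in AKI_PTPi_mEVs, from 9.14 CPM per kilobase for Mcm2 to 21.1 CPM per kilobase for Mcm6. The length used counts every annotated exon base of a gene, 6956 for Mcm2 and 3589 to 4666 for the other subunits. A transcript can be shorter, so the lowest place of Mcm2 and the spread in AKI_PTPi_mEVs depend on that length. These spreads are descriptions of group means, and their difference was not tested. The value for AKI_PBS includes the high Mcm7 of replicate 3.

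**Figure D3:**
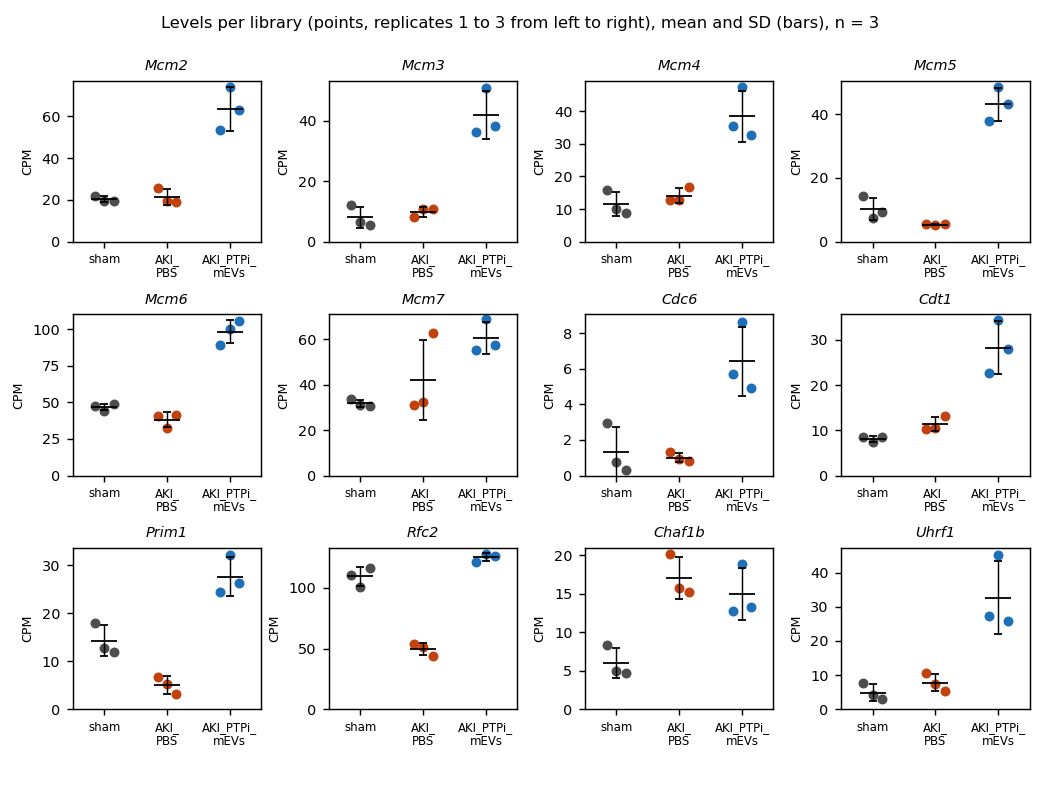
CPM (y axes, from 0) of the 6 MCM2-7 genes and of Cdc6, Cdt1, Prim1, Rfc2, Chaf1b and Uhrf1 in each library by group, with points for libraries and bars for the mean and SD of 3 libraries (the bar of Cdc6 in sham runs below 0 and is cut there). For Mcm2 to Mcm6, Cdc6, Cdt1, Prim1 and Uhrf1 the 3 AKI_PTPi_mEVs points lie above all others, while Rfc2 is low in AKI_PBS only and Chaf1b is low in sham only.

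The promoter windows of these genes were searched for E2F-type sequence. RefSeq windows of 300 bases (GRCm38.p6; 250 bases before to 50 after a gene's start) were found for 41 of the 49 genes, 50 windows in all. The letters TTTCCCGC, TTTCGCGC, TTTGCCGC and TTTGGCGC were searched on both strands, where matches on opposite strands can overlap. Of the 41 genes, 15 (36.6%) had at least 1 match, beside 704 of 27025 genes (2.6%) with a RefSeq window, non-coding genes included. Of the 50 windows 15 had a match, beside 744 of all 32851 windows (2.26%). The list of 20 mitosis and G2 genes described further on had a match in 1 of 17 genes with a window (5.88%).

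The windows of 5 genes are shown, the 170 bases before the start 5′ to 3′ on the gene's strand with matches in capitals. Mcm5, Mcm6, Cdc6 and Pola1 rose in AKI_PTPi_mEVs against AKI_PBS and have matches there. Chaf1b did not pass in that comparison and has none. The 5 were picked as examples after their values were seen. Genes that went the other way, such as Mcm7 (a match, not called) and Prim1 (no match, called higher), are not shown.
Mcm5 (chr8:75109339-75109508, plus strand): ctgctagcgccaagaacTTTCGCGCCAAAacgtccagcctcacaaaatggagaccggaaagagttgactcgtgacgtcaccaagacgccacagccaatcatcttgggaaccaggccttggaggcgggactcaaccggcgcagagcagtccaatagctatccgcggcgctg
Mcm6 (chr1:128359706-128359875, minus strand): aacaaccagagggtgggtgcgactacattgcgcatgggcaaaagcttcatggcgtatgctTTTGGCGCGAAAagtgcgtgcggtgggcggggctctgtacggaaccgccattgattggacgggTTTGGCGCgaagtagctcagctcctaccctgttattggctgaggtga
Cdc6 (chr11:98907981-98908150, plus strand): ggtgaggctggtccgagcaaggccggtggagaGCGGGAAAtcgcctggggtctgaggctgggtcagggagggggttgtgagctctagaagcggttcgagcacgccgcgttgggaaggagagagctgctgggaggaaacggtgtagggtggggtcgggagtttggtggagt
Pola1 (chrX:93632156-93632325, minus strand): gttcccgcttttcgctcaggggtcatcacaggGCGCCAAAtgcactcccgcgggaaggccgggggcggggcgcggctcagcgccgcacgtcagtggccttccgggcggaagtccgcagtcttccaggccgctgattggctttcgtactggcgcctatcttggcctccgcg
Chaf1b (chr16:93883731-93883900, plus strand): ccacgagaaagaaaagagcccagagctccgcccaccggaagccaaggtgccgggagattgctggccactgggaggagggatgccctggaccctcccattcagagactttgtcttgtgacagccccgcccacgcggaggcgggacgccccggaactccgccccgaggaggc
In Mcm5 matches on opposite strands overlap to form an unbroken run that begins 153 bases before the start. Mcm6 has such a run from 110 bases before the start and a further match 47 bases before it. Cdc6 and Pola1 have 1 match each, both beginning 138 bases before the start. These starts are RefSeq's; GENCODE places the first base of Cdc6 upstream of the whole stretch shown, which therefore lies inside the gene as annotated there.

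Among the 15 genes with a match, 12 were called higher in AKI_PTPi_mEVs against AKI_PBS, and Orc1, Mcm7 and Rfc3 were not. Among the 26 genes whose windows held no match, 13 were called higher. Both sets were above the 25.4% of all genes called higher there. The median log2 fold changes were 1.36 and 0.72. Against sham 11 of 15 and 11 of 26 were higher in AKI_PTPi_mEVs, beside 7.43% of all genes, with medians of 1.07 and 0.65. In AKI_PBS against sham the medians of both sets were near each other, at -0.19 and -0.20. These counts are descriptions, and a match is not a measured binding site.

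Genes of helicase activation were mixed. Cdc45, which joins the MCM ring to make the active helicase, was at 5.096, 2.697 and 5.08 CPM in sham, 2.25, 1.97 and 3.98 CPM in AKI_PBS and 7.89, 11.1 and 7.37 CPM in AKI_PTPi_mEVs. AKI_PTPi_mEVs libraries were all higher than the other 6, and sham and AKI_PBS overlapped. It rose against AKI_PBS (1.68 ± 0.33 on the log2 scale, edgeR adjusted p = 0.00109) and did not pass against sham (1.04 ± 0.32 on the log2 scale, edgeR adjusted p = 0.0506), although it did with DESeq2, with limma voom, with no low-count filter, with only the groups compared and without AKI_PBS replicate 3. Of the GINS subunits, Gins3 (1.37 ± 0.28 on the log2 scale, edgeR adjusted p = 0.00135) and Gins4 (0.62 ± 0.14 on the log2 scale, edgeR adjusted p = 0.00276) were higher in AKI_PTPi_mEVs than in AKI_PBS. Gins1 and Gins2 did not pass there (0.62 ± 0.33 and 0.70 ± 0.34, the latter called without AKI_PBS replicate 1 or AKI_PTPi_mEVs replicate 1) but were higher than in sham (1.65 ± 0.36 and 1.51 ± 0.35, edgeR adjusted p = 0.0106 and 0.0148), calls lost without sham replicate 2 or AKI_PTPi_mEVs replicate 2.

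In AKI_PBS against sham, Gins1 rose by 1.03 ± 0.36 and Gins3 fell (-0.83 ± 0.28), so subunits of a single complex were called in both directions. The call of Gins1 was lost without sham replicate 2 or 3 or AKI_PBS replicate 3, and that of Gins3 without sham replicate 1 or 3 or AKI_PBS replicate 2 or 3. Exons of Gins2 overlap those of Gse1 on the other strand over 2758 of 4097 bases. Mcm10, a scaffold that brings polymerase alpha to the helicase, was at 12.6, 24.4 and 23.5 CPM in sham, 7.69, 7.98 and 13.1 CPM in AKI_PBS and 13.7, 14.3 and 16.2 CPM in AKI_PTPi_mEVs. Sham replicates 2 and 3 were the highest of all 9 libraries, and sham replicate 1 lay below AKI_PBS replicate 3 and the AKI_PTPi_mEVs libraries. Mcm10 fell in AKI_PBS against sham (-1.07 ± 0.27 on the log2 scale, edgeR adjusted p = 0.00437), and it did not pass in AKI_PTPi_mEVs against AKI_PBS (0.62 ± 0.27, called without sham replicate 1 or AKI_PBS replicate 3) or against sham (-0.46 ± 0.26), where it and Rpa3 were the only members with a negative value.

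The clamp and its loader split in AKI_PBS. Rfc2, a small subunit of the loader, was at 111, 101 and 116 CPM in sham, 53.6, 51.2 and 44.1 CPM in AKI_PBS and 122, 128 and 126 CPM in AKI_PTPi_mEVs. Each AKI_PBS library held less than all of the others. Rfc2 fell in AKI_PBS against sham (-1.14 ± 0.13 on the log2 scale, edgeR adjusted p = 1.16e-05), was higher in AKI_PTPi_mEVs than in AKI_PBS (1.34 ± 0.13 on the log2 scale, edgeR adjusted p = 5.86e-06) and did not pass against sham (0.20 ± 0.12 on the log2 scale, edgeR adjusted p = 0.328). Rfc2 exons overlap those of Lat2 on the other strand over 952 bases. Rfc5 had the same order, with a log2 fold change of -0.84 ± 0.15 in AKI_PBS against sham and 1.42 ± 0.15 in AKI_PTPi_mEVs against AKI_PBS (edgeR adjusted p = 0.000405 and 1.19e-05).

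Rfc4 was higher in AKI_PTPi_mEVs than in AKI_PBS (1.69 ± 0.29 on the log2 scale, edgeR adjusted p = 0.000407). Its fall in AKI_PBS against sham (-0.78 ± 0.29) was called only in part of the fits, and it was -0.50 and not called without AKI_PBS replicate 3; the call was also lost without any 1 sham library or AKI_PBS replicate 2 and with library totals. Against sham in AKI_PTPi_mEVs, Rfc3, Rfc4 and Rfc5 were at 0.75 ± 0.20, 0.91 ± 0.28 and 0.58 ± 0.15, calls that were each lost without sham replicate 2, sham replicate 3 or AKI_PTPi_mEVs replicate 2. Rfc3 rose in AKI_PBS against sham (1.05 ± 0.20 on the log2 scale, edgeR adjusted p = 0.000729), opposite to the other small subunits, and did not pass between the injured groups (-0.30 ± 0.20). Rfc1, the large subunit, did not pass in any comparison. Pcna, the clamp, was at 36.3, 31.3 and 32.9 CPM in sham, 45.5, 43.7 and 50.3 CPM in AKI_PBS and 40.01, 55.8 and 42.4 CPM in AKI_PTPi_mEVs. It rose in AKI_PBS by 0.47 ± 0.15, a call lost without sham replicate 2 or 3, and its log2 fold change between the injured groups was -0.014 ± 0.15.

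Most polymerase and primase genes were higher in AKI_PTPi_mEVs than in AKI_PBS. Of 8, 7 were higher there, beside 25.4% of all genes. In AKI_PBS against sham 3 fell, beside 27.9% of all genes (5 with DESeq2 or limma voom, which also called Pold1 and Pole2). In that comparison 0 rose, beside 27.8% of all genes (0 at an unadjusted edgeR p under 0.05, with DESeq2 or with limma voom). Prim1, the catalytic subunit of primase, was at 17.9, 12.8 and 11.99 CPM in sham, 6.74, 5.23 and 3.18 CPM in AKI_PBS and 24.4, 32.1 and 26.3 CPM in AKI_PTPi_mEVs. The groups did not overlap, in the order AKI_PBS, sham, AKI_PTPi_mEVs. Prim1 fell in AKI_PBS against sham (-1.49 ± 0.26 on the log2 scale, edgeR adjusted p = 0.000383) and was 5.44-fold higher in AKI_PTPi_mEVs than in AKI_PBS (2.44 ± 0.26 on the log2 scale, edgeR adjusted p = 1.33e-05). Prim2, the other primase subunit, fell in AKI_PBS as well (-0.74 ± 0.21) and was higher in AKI_PTPi_mEVs by 0.74 ± 0.21, and against sham its value was 0.0035 ± 0.21.

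Pola1, Pold1, Pole and Pole2, subunits of the 3 replicative polymerases, did not pass in AKI_PBS against sham (-0.19 ± 0.24, -0.62 ± 0.27, -0.65 ± 0.31 and -0.90 ± 0.37). In AKI_PTPi_mEVs against AKI_PBS they rose by 1.18 ± 0.23, 1.76 ± 0.27, 1.61 ± 0.30 and 1.97 ± 0.35, with edgeR adjusted p from 0.00019 to 0.00112. Pold2 rose there by 1.36 ± 0.23. Its fall in AKI_PBS against sham (-0.65 ± 0.23) was lost with library totals, without any 1 sham library or AKI_PBS replicate 2, and without AKI_PBS replicate 3, where it was -0.38. That library held 4.77 CPM of Pold1 and 13.4 CPM of Pold2, the lowest of all 9 for both. Pola2, the regulatory subunit of polymerase alpha, did not pass in any comparison. Against sham in AKI_PTPi_mEVs, Pola1, Prim1, Pold1 and Pole were called higher (0.99 ± 0.23, 0.95 ± 0.24, 1.14 ± 0.26 and 0.95 ± 0.29), and each call was lost without sham replicate 2 or AKI_PTPi_mEVs replicate 2.

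The single-strand binding complex RPA had a subunit of each direction in AKI_PBS. Rpa1, the large subunit, was at 66.4, 73.01 and 74.5 CPM in sham, 50.1, 44.3 and 45.5 CPM in AKI_PBS and 109.7, 106 and 103 CPM in AKI_PTPi_mEVs, with no overlap between groups. It fell in AKI_PBS against sham (-0.61 ± 0.12 on the log2 scale, edgeR adjusted p = 0.000814), and in AKI_PTPi_mEVs it was higher than in AKI_PBS (1.19 ± 0.12 on the log2 scale, edgeR adjusted p = 8.82e-06) and than in sham (0.58 ± 0.12 on the log2 scale, edgeR adjusted p = 0.00794). Rpa2 rose in AKI_PBS (0.77 ± 0.19 on the log2 scale, edgeR adjusted p = 0.00401) and was also higher in AKI_PTPi_mEVs than in sham (1.12 ± 0.19 on the log2 scale, edgeR adjusted p = 0.00302), while the injured groups did not differ past the threshold (0.35 ± 0.19) except without AKI_PBS replicate 3. Rpa3, the smallest subunit, held 1.93 to 6.86 CPM and did not pass in any comparison.

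Genes that join the lagging strand followed 2 patterns. Lig1, DNA ligase 1, was at 10.97, 6.14 and 5.18 CPM in sham, 7.78, 9.69 and 4.77 CPM in AKI_PBS and 14.6, 19.9 and 16.6 CPM in AKI_PTPi_mEVs. Its AKI_PTPi_mEVs libraries were the highest, and AKI_PBS and sham overlapped. It was higher in AKI_PTPi_mEVs than in AKI_PBS (1.20 ± 0.30 on the log2 scale, edgeR adjusted p = 0.00542) and than in sham (1.19 ± 0.30 on the log2 scale, edgeR adjusted p = 0.0223), the latter call being lost without sham replicate 2 or 3 or AKI_PTPi_mEVs replicate 2. Fen1, the flap endonuclease, was at 2.06, 2.88 and 1.63 CPM in sham, 3.89, 3.86 and 4.95 CPM in AKI_PBS and 4.59, 6.55 and 3.85 CPM in AKI_PTPi_mEVs. It rose in AKI_PBS against sham (0.94 ± 0.30 on the log2 scale, edgeR adjusted p = 0.0184), a call lost without sham replicate 1 or 3, and did not pass between the injured groups (0.24 ± 0.29). Against sham in AKI_PTPi_mEVs it was at 1.18 ± 0.30, which was not called without sham replicate 1 or 3 or AKI_PTPi_mEVs replicate 2. An antisense gene, Gm10143, overlaps 1909 of the 2422 exon bases of Fen1.

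Of 4 nucleotide synthesis genes, Tk1, Tyms and Rrm1 were higher in AKI_PTPi_mEVs than in AKI_PBS, beside 25.4% of all genes. Rrm2 was not called. Tk1, thymidine kinase 1, was at 30.1, 16.2 and 24.5 CPM in sham, 11.7, 7.38 and 8.13 CPM in AKI_PBS and 30.9, 45.5 and 41.00 CPM in AKI_PTPi_mEVs. AKI_PBS was the lowest group without overlap, and the lowest AKI_PTPi_mEVs library lay just above the highest sham library. Tk1 fell in AKI_PBS against sham (-1.38 ± 0.25 on the log2 scale, edgeR adjusted p = 0.000511) and was 4.31-fold higher in AKI_PTPi_mEVs than in AKI_PBS (2.11 ± 0.25 on the log2 scale, edgeR adjusted p = 2.98e-05). It did not pass against sham (0.73 ± 0.24 on the log2 scale, edgeR adjusted p = 0.0605), although it did with DESeq2, limma voom, no low-count filter, only the groups compared, or without AKI_PBS replicate 1 or 3 or AKI_PTPi_mEVs replicate 1. Tyms, thymidylate synthase, fell in AKI_PBS by a margin that rested on AKI_PBS replicate 3 (-0.71 ± 0.25, and -0.44 and not called without it; the call was also lost without sham replicate 1 or 2 and with library totals) and was higher in AKI_PTPi_mEVs than in AKI_PBS (1.37 ± 0.25 on the log2 scale, edgeR adjusted p = 0.00061). Rrm1, the large subunit of ribonucleotide reductase, did not pass in AKI_PBS (-0.32 ± 0.18) and was higher in AKI_PTPi_mEVs than in AKI_PBS (1.27 ± 0.18 on the log2 scale, edgeR adjusted p = 0.000106) and than in sham (0.95 ± 0.18 on the log2 scale, edgeR adjusted p = 0.00514).

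Rrm2, the small subunit of ribonucleotide reductase whose level normally follows S phase, was at 31.2, 15.4 and 11.2 CPM in sham, 45.5, 29.1 and 30.7 CPM in AKI_PBS and 21.01, 30.2 and 18.3 CPM in AKI_PTPi_mEVs. The groups overlapped in every comparison. It rose in AKI_PBS against sham (0.86 ± 0.33 on the log2 scale, edgeR adjusted p = 0.0407), and the log2 fold change was 1.38 without sham replicate 1 and 0.58, not called, without sham replicate 3. The call was also lost without sham replicate 2 (0.71), AKI_PBS replicate 1 (0.63), AKI_PBS replicate 3 (0.95) or AKI_PTPi_mEVs replicate 1 (0.85), and with only the groups compared. Between the injured groups Rrm2 did not pass (-0.60 ± 0.33) but was called lower with no low-count filter. The 2 subunits of the same enzyme had log2 fold changes of opposite sign between the injured groups, 1.27 ± 0.18 for Rrm1 and -0.60 ± 0.33 for Rrm2, and the difference between them was not tested.

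Of the genes of S-phase entry, E2f1, a transcription factor that drives replication genes, was at 6.17, 5.12 and 5.79 CPM in sham, 3.03, 3.35 and 0.707 CPM in AKI_PBS and 8.99, 10.04 and 8.24 CPM in AKI_PTPi_mEVs. AKI_PBS was the lowest group, its replicate 3 lowest of all, and AKI_PTPi_mEVs the highest, with no overlap. E2f1 fell in AKI_PBS against sham (-1.26 ± 0.39 on the log2 scale, edgeR adjusted p = 0.0138; -0.83 and still called without AKI_PBS replicate 3) and was higher in AKI_PTPi_mEVs than in AKI_PBS (1.94 ± 0.38 on the log2 scale, edgeR adjusted p = 0.00104). Against sham it did not pass (0.68 ± 0.35). Ccne1, cyclin E1, was higher in AKI_PTPi_mEVs than in AKI_PBS (1.30 ± 0.31 on the log2 scale, edgeR adjusted p = 0.0036) and than in sham (1.23 ± 0.31 on the log2 scale, edgeR adjusted p = 0.0214), the latter being lost without any 1 sham library or AKI_PTPi_mEVs replicate 2. Ccne2 did not pass in any comparison.

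Uhrf1, which links copied DNA to maintenance methylation, was at 7.64, 4.09 and 2.95 CPM in sham, 10.6, 7.38 and 5.48 CPM in AKI_PBS and 27.3, 45.1 and 25.7 CPM in AKI_PTPi_mEVs. All AKI_PTPi_mEVs libraries were above the other 6. Uhrf1 was 6.66-fold higher in AKI_PTPi_mEVs than in sham (2.74 ± 0.35 on the log2 scale, edgeR adjusted p = 0.000633), the largest log2 fold change of the 49 in that comparison, and 4.17-fold higher than in AKI_PBS (2.06 ± 0.34 on the log2 scale, edgeR adjusted p = 0.000299). Chaf1b, a subunit of the histone chaperone CAF-1, was at 8.33, 5.02 and 4.78 CPM in sham, 20.1, 15.7 and 15.2 CPM in AKI_PBS and 12.8, 18.9 and 13.3 CPM in AKI_PTPi_mEVs. Both injured groups were above sham and overlapped each other. Chaf1b rose in AKI_PBS against sham (1.49 ± 0.25 on the log2 scale, edgeR adjusted p = 0.000298), the largest rise of the 49 there, and in AKI_PTPi_mEVs against sham (1.31 ± 0.25 on the log2 scale, edgeR adjusted p = 0.00612), and its difference between the injured groups was -0.19 ± 0.24. Chaf1a, the large subunit, was called higher than in sham in AKI_PTPi_mEVs and in no other comparison (0.63 ± 0.19), a call lost without any 1 sham or AKI_PTPi_mEVs library, and 4648 of its 8854 exon bases overlap Ubxn6 on the other strand.

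Further replication and cell cycle genes were read from lists written with earlier results of these data known. Of 20 further replisome subunits, 4 were higher and 3 lower in AKI_PTPi_mEVs than in AKI_PBS, and 6 were higher than in sham, where 25.4%, 25.8% and 7.43% of all genes were called in those directions. Between the injured groups these shares of the list were below those of all genes. The 3 lower calls fell to 0 or 1 in the fits without any 1 library other than sham replicate 1 and AKI_PTPi_mEVs replicate 2, and the 6 to 2 without sham replicate 2 or AKI_PTPi_mEVs replicate 2 and to 3 without sham replicate 3. Timeless, a fork protection factor, was higher in AKI_PTPi_mEVs than in AKI_PBS (1.70 ± 0.25 on the log2 scale, edgeR adjusted p = 0.000135), as was Chtf18, a subunit of another clamp loader (2.65 ± 0.40 on the log2 scale, edgeR adjusted p = 0.000161). Of 10 further genes of S-phase chromatin, 3 were higher and 3 lower in AKI_PTPi_mEVs than in AKI_PBS, beside 25.4% and 25.8% of all genes. Hells, a chromatin remodeller of replicating cells, was higher in AKI_PTPi_mEVs by 2.13 ± 0.30 against AKI_PBS and 2.10 ± 0.30 against sham. Asf1a (-1.27 ± 0.21) and Dek (-0.69 ± 0.16) were among the lower genes against AKI_PBS. Of 9 replication checkpoint genes, 3 were higher in AKI_PTPi_mEVs than in AKI_PBS, beside 25.4% of all genes. Chek1, the checkpoint kinase that acts at stalled forks, was at 1.67, 0.372 and 0.914 CPM in sham, 1.297, 1.72 and 2.12 CPM in AKI_PBS and 5.97, 8.08 and 5.83 CPM in AKI_PTPi_mEVs, and was higher in AKI_PTPi_mEVs than in AKI_PBS (1.95 ± 0.37 on the log2 scale, edgeR adjusted p = 0.000835) and than in sham (2.74 ± 0.40 on the log2 scale, edgeR adjusted p = 0.00125). Of 12 further genes of nucleotide supply, 6 were higher in AKI_PTPi_mEVs than in AKI_PBS (25.4% of all genes) and 0 lower (0 by DESeq2 or limma voom, 1 at an unadjusted edgeR p under 0.05, and 1 called without AKI_PTPi_mEVs replicate 1), while 1 was higher (2 without AKI_PBS replicate 3) and 5 lower in AKI_PBS than in sham (27.8% and 27.9% of all genes). Mthfd1, a folate enzyme of nucleotide synthesis, fell in AKI_PBS (-1.99 ± 0.17) and was higher in AKI_PTPi_mEVs than in AKI_PBS (1.84 ± 0.17).

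The kinase that fires licensed origins had its subunits apart. Cdc7, the kinase, was higher in AKI_PTPi_mEVs than in AKI_PBS (1.83 ± 0.40 on the log2 scale, edgeR adjusted p = 0.002), and Dbf4, its activating partner, was lower (-1.42 ± 0.28 on the log2 scale, edgeR adjusted p = 0.00122). Dbf4 rose in AKI_PBS against sham (1.79 ± 0.29 on the log2 scale, edgeR adjusted p = 0.000219). Of 21 tested genes of G1 and E2F control, 6 were higher and 4 lower in AKI_PTPi_mEVs than in AKI_PBS, near the 25.4% and 25.8% of all genes. The 4 became 2 without AKI_PTPi_mEVs replicate 1 or 2 and 1 without replicate 3. Ccnd1, cyclin D1, was at 274, 271 and 232 CPM in sham, 101, 136 and 108 CPM in AKI_PBS and 332, 383 and 448 CPM in AKI_PTPi_mEVs. It fell in AKI_PBS (-1.18 ± 0.16 on the log2 scale, edgeR adjusted p = 5.57e-05) and was higher in AKI_PTPi_mEVs than in AKI_PBS (1.76 ± 0.16 on the log2 scale, edgeR adjusted p = 4.7e-06).

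Among the CDK inhibitors, Cdkn1a, which encodes p21, had the largest log2 fold changes. It was at 13.6, 9.95 and 9.25 CPM in sham, 531, 562 and 819 CPM in AKI_PBS and 36.1, 53.3 and 32.7 CPM in AKI_PTPi_mEVs. Each AKI_PBS library held more than any other library, and the AKI_PTPi_mEVs libraries lay above sham. The list of CDK inhibitors summed to 606 to 892 CPM in AKI_PBS, and most of that was Cdkn1a. Of 6 tested inhibitors, 1 was higher (Cdkn1a) and 1 lower (Cdkn2c) in AKI_PBS than in sham, beside 27.8% and 27.9% of all genes. In AKI_PTPi_mEVs Cdkn1a was lower than in AKI_PBS (-3.97 ± 0.24 on the log2 scale, edgeR adjusted p = 4.38e-07) and higher than in sham (1.89 ± 0.24 on the log2 scale, edgeR adjusted p = 0.000571). Myc, a growth factor response gene upstream of many G1 genes, was higher than in sham in AKI_PBS (2.81 ± 0.40 on the log2 scale, edgeR adjusted p = 0.000156) and in AKI_PTPi_mEVs (1.95 ± 0.39 on the log2 scale, edgeR adjusted p = 0.00974), the latter call being lost with no low-count filter.

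No mitosis or G2 gene was called higher in AKI_PTPi_mEVs. Of 19 tested, 0 were higher and 6 lower in AKI_PTPi_mEVs than in AKI_PBS (median log2 fold change -0.64), where 25.4% and 25.8% of all genes were. Against sham 0 were higher and 1, Cenpa, lower (median -0.55), beside 7.43% and 5.79% of all genes. Cenpa was not called there with limma voom (0 lower) or without sham replicate 1 or 2 or any 1 AKI_PTPi_mEVs library. The number lower than in sham was 2 without AKI_PBS replicate 3 or with only the groups compared and 3 with no low-count filter. In both comparisons 0 were higher by DESeq2, by limma voom or at an unadjusted edgeR p under 0.05. Leaving out AKI_PBS replicate 1 or AKI_PTPi_mEVs replicate 1 brought the 6 lower than in AKI_PBS to 3. Their summed level was 54.3 to 128 CPM in sham, 66.6 to 206 CPM in AKI_PBS and 54.3 to 74.3 CPM in AKI_PTPi_mEVs. Sham replicate 1 and AKI_PBS replicate 1 were the highest of their groups, at 128 and 206 CPM, and the AKI_PTPi_mEVs libraries lay among the lower values. Cenpa, the centromere histone, was at 4.61, 4.19 and 2.34 CPM in sham, 12.9, 6.78 and 5.21 CPM in AKI_PBS and 1.38, 1.31 and 1.54 CPM in AKI_PTPi_mEVs, and its AKI_PTPi_mEVs level was below that of AKI_PBS (-2.55 ± 0.39 on the log2 scale, edgeR adjusted p = 0.000189).

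In AKI_PBS against sham 3 of 19 mitosis and G2 genes were higher, beside 27.8% of all genes, and 0 lower (0 at an unadjusted edgeR p under 0.05, by DESeq2 or by limma voom). The 3 were Cenpa (1.16 ± 0.35), Ube2c (1.78 ± 0.62) and Ccnb1, cyclin B1 (1.37 ± 0.54). None was called without AKI_PBS replicate 1, where the values were 0.69, 0.85 and 0.29, and none without sham replicate 3. The number was 7 without sham replicate 1 or with no low-count filter and 1 without sham replicate 2 or with only the groups compared. It was 2 with limma voom, which called Cenpa but not Ube2c or Ccnb1.

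**Figure D4:**
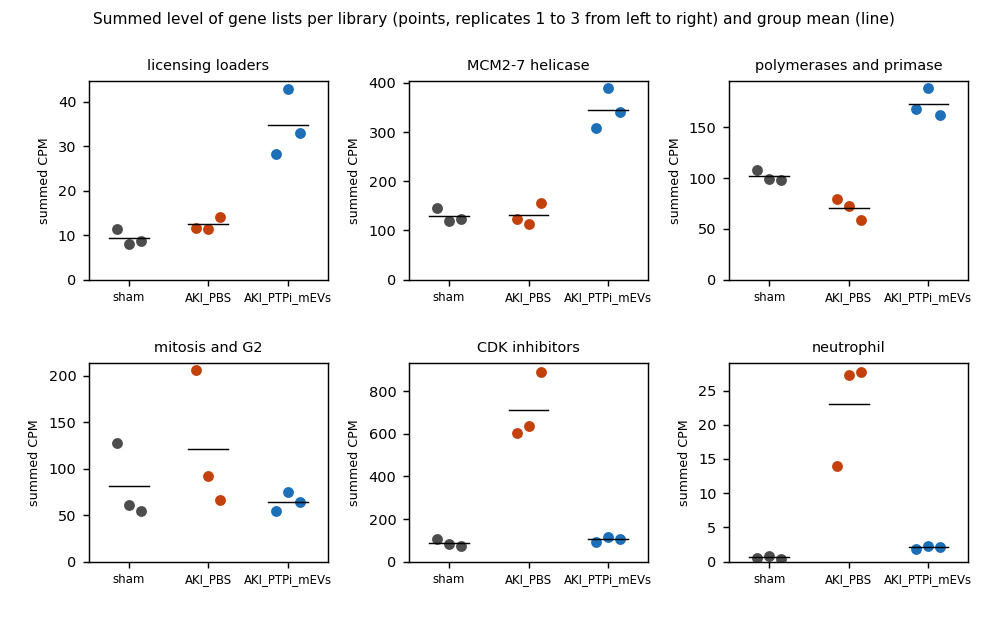
Summed CPM (y axes, from 0) of 6 gene lists in each library by group, with points for libraries and a line for the group mean. Licensing loaders, the MCM2-7 genes and polymerase and primase genes are highest in all 3 AKI_PTPi_mEVs libraries, CDK inhibitors and neutrophil genes are highest in AKI_PBS, and mitosis and G2 genes are highest in sham replicate 1 and AKI_PBS replicate 1. The sum of CDK inhibitors in AKI_PBS is mostly that of Cdkn1a.

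Markers of several cell types differed between the groups, while the endothelial sums and the fibroblast and pericyte sums overlapped between all groups. The part of these cell types in the results was not tested. Of 10 proximal tubule markers 9 fell in AKI_PBS against sham, beside 27.9% of all genes. Between the injured groups 7 were higher and 1 lower in AKI_PTPi_mEVs (25.4% and 25.8% of all genes). In AKI_PTPi_mEVs 2 were lower than in sham (5.79% of all genes). No marker of the 10 was called higher than in sham there (0 by edgeR, also at an unadjusted p under 0.05, by DESeq2 and by limma voom), beside 7.43% of all genes. The 8 neutrophil markers summed to 0.406 to 0.837 CPM in sham, 14.003 to 27.7 CPM in AKI_PBS and 1.84 to 2.29 CPM in AKI_PTPi_mEVs. Lymphocyte markers were near 0: the 8 genes summed to 5.28 to 7.07 CPM in sham, 1.29 to 1.77 CPM in AKI_PBS and 2.51 to 4.04 CPM in AKI_PTPi_mEVs, and 1 of 8, Cd8a, passed the low-count filter. S100a8, Retnlg, Mmp8 and Ly6g of the neutrophil markers were at 0 in all 3 sham libraries. Macrophage markers summed to 261 to 457 CPM in sham, 194 to 224 CPM in AKI_PBS and 129 to 194 CPM in AKI_PTPi_mEVs, endothelial markers to 170.0 to 295 CPM in sham, 181 to 312 CPM in AKI_PBS and 138 to 204 CPM in AKI_PTPi_mEVs and red blood cell and erythroid markers to 147 to 177 CPM in sham, 188 to 329 CPM in AKI_PBS and 144 to 187 CPM in AKI_PTPi_mEVs. These sums hide differences between the red blood cell and erythroid genes. Of 6 tested, 5 were lower and 1 higher in AKI_PTPi_mEVs than in AKI_PBS (25.8% and 25.4% of all genes). Against sham 4 were lower and 1 higher in AKI_PTPi_mEVs (5.79% and 7.43% of all genes). Fibroblast and pericyte markers summed to 107 to 189 CPM in sham, 133 to 175 CPM in AKI_PBS and 127 to 286 CPM in AKI_PTPi_mEVs, podocyte markers to 169 to 219 CPM in sham, 248 to 356 CPM in AKI_PBS and 181 to 189.7 CPM in AKI_PTPi_mEVs, and urothelial markers to 64.9 to 87.5 CPM in sham, 7.46 to 22.5 CPM in AKI_PBS and 36.2 to 166 CPM in AKI_PTPi_mEVs. Loop of Henle markers summed to 2298 to 2597 CPM in sham, 1038 to 1573 CPM in AKI_PBS and 1833 to 2142 CPM in AKI_PTPi_mEVs and distal and collecting duct markers to 2809 to 3391 CPM in sham, 1270.1 to 2499 CPM in AKI_PBS and 2532 to 2706 CPM in AKI_PTPi_mEVs. The 49 replication genes summed to 899 to 1009 CPM in sham, 799 to 894 CPM in AKI_PBS and 1434 to 1783 CPM in AKI_PTPi_mEVs.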

How the data were processed

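RNA was sequenced from 9 mouse kidney libraries, 3 in each of 3 groups named by the labels. The authors deposited 1 table of raw read counts per gene, with Ensembl mouse identifiers. Per the submitters' processing notes the tools were STAR and HTSeq and the build was GRCh38.p14. That build is human while the identifiers are mouse, so the alignment build is not settled. The strand setting, duplicate handling and tool versions were not given in the sources used here. Without the strand setting, reads of overlapping genes on opposite strands cannot be told apart, which touches 14 members through exons of a coding gene.

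Symbols were matched to identifiers with the GENCODE annotation. Counts were tested with edgeR 4.0.16 (R 4.3.3) in 1 fit over all 9 libraries, with filterByExpr by group, TMM factors, robust quasi-likelihood dispersion, 6 residual degrees of freedom and Benjamini-Hochberg adjustment over 17036 genes. Standard errors were derived from the fold change and its F statistic. The fit was also run on simulated data with 200 changed genes. Far more genes were called in these data, so that run cannot show how the fit performs here. Library totals of 9467851 to 11389479 counts limit the precision of low genes. Alternatives were relative log expression factors, library totals alone, DESeq2 1.42.0, limma voom (limma 3.58.1), no filter on low counts, a filter of 1 CPM in at least 3 libraries, only the groups compared, the replicate number as a block, and each library left out. Figures were drawn with matplotlib 3.10.9 (Python 3.11.15).

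The members and the lists of further genes and markers were chosen with earlier results of these data known. Values per library were to be given for the member of smallest adjusted p per role group in each of the first 2 comparisons, and at most 3 genes per further list and comparison were to be named. Per-library values of Cdc6, Mcm2, Mcm3, Mcm4, Mcm6, Mcm7, Pcna and Rrm2 and the promoter search were added after values were seen, as were the alternatives for the further lists. No set test was run, and counts over lists are descriptions.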

Additional observations from a re-analysis of the deposited data

How the results depend on the processing

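The 17 alternatives gave no reversed direction for a called member. With each library left out in turn, the members called higher in AKI_PBS against sham numbered 5 to 11 and those lower 10 to 17, with a median log2 fold change from -0.24 to -0.0011. In AKI_PTPi_mEVs against AKI_PBS 30 to 33 were higher and 0 lower, with a median from 1.05 to 1.24. Against sham 11 to 37 were higher and 0 lower, with a median from 0.70 to 0.9985. The number lower in AKI_PTPi_mEVs than in AKI_PBS was 1 with library totals (Orc2) and 1 with no low-count filter (Rrm2). Replicate numbers did not pair the samples: correlations of deviations between libraries of the same number lay between -0.19 and 0.11. With the replicate number as a block, 24 members were called in AKI_PBS against sham, 32 in AKI_PTPi_mEVs against AKI_PBS and 24 against sham. Among all genes, library totals gave 5250 higher and 4301 lower in AKI_PBS against sham (median log2 fold change 0.11), and 3757 higher and 5048 lower in AKI_PTPi_mEVs against AKI_PBS (median -0.13). Members with few counts, such as Cdc6, Orc1 and Fen1, are limited by depth. The causes of these shifts were not tested.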
